A study of Mus musculus with 12 samples.

Results

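The outer segment of a rod is a modified cilium packed with a stack of membrane discs, and the genes described here encode proteins that shape those discs or hold the stack together. They were taken by symbol, through Ensembl identifiers, from the gene counts of cultured mouse retina, and all 9 of them (Prph2, Rom1, Abca4, Prom1, Cdhr1, Fscn2, Prcd, Rp1 and Rp1l1) were found among 53707 genes. Retinal explants are whole retinas that were dissected and kept alive in medium. Here they came from wild-type C57BL/6J mice at 28 days of age, with the pigment epithelium removed, and were held for 48 hours in Neurobasal-A medium that contained either 5 mM or 25 mM glucose together with the same B27 and N2 supplements and antibiotics. Each concentration had 3 biological replicates, and 2 libraries were made as technical replicates from every biological replicate, 12 in all. The labels do not say whether a biological replicate was an animal or a pool of retinas. The tests below measure the spread between these replicates. Exceptions are a search for outlying libraries and an alternative that took the 12 libraries as separate samples.

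Discs are renewed throughout life. New membrane bulges out at the base of the outer segment, where the PROM1 and CDHR1 proteins sit at the leading edge, and the growing discs are then closed by a rim that PRPH2 and ROM1 build. The finished discs are stacked along an axoneme of microtubules that RP1 and RP1L1 bind, and old discs are shed at the tip and taken up by the pigment epithelium. Loss of any of these genes is known to disturb outer segments or vision, and several are human retinal disease genes.

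The comparison asked how the RNA of these genes differed between retinas kept in high and in low glucose. At 25 mM glucose 6 of the 9 genes were higher at a false discovery rate (FDR) under 0.05 in the quasi-likelihood test of edgeR, against 1.47% of all 21061 genes tested. These were Rp1 (10.8-fold), Abca4 (3.88-fold), Prom1 (3.83-fold), Cdhr1 (2.86-fold), Rp1l1 (2.62-fold) and Prph2 (2.42-fold). Rom1, Prcd and Fscn2 did not pass the test, and 0 of the 9 were lower, where 0.513% of all genes were. Under an FDR of 0.01 with a fold change over 2, 0 of the 9 and 0% of all genes were called by edgeR, while 6052 genes and 6 of the 9 had an unadjusted p under 0.05. The study gives these stricter thresholds for its glucose comparison and names Rp1 among the genes it called. That call was not reproduced by the edgeR test used here, and the reason was not tested. DESeq2 called the 6 genes higher at both thresholds, against 7.03% of all genes at an FDR under 0.05 and 2.98% at the stricter thresholds. These are whole retinas, in which fewer rods and less RNA per rod cannot be told apart. In 6 of the 9 genes every replicate at 25 mM was above every replicate at 5 mM, which held for 16% of all genes, and the opposite held for 0 of the 9 and 15.8% of all genes. All 9 genes passed the filter on low counts. The calls depended on which replicates entered. Without 5 mM replicate 1, 6 of the 9 genes and 5845 of all genes were called. Without 25 mM replicate 3, 5 of the 9 and 494 of all genes were. Without 5 mM replicate 2 or 3 or 25 mM replicate 1 or 2, 0 of the 9 and 0 of all genes were called, while the 6 genes had log2 fold changes between 1.08 and 3.38. In batch 1 alone 6 of the 9 and 3279 of all genes were called. In batch 2 alone 0 of the 9 and 0 of all genes were. There the log2 fold changes of the 6 genes lay between 1.17 and 2.89. The median log2 fold change of the 9 genes was 1.39, and the median over all genes tested was -0.00955.

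Library totals ranged from 17998905 to 36692484 estimated counts at 5 mM and from 14815285 to 23129541 at 25 mM glucose. The lowest summed count of a member in a replicate was 52.5, for Fscn2, and that of every other member was at least 216.6. Libraries that share a biological replicate were not the most alike. Over all genes tested, 0 of 12 libraries had the highest correlation of log2 CPM with their own technical partner (r between 0.937 and 0.971), and 2 libraries, both of 5 mM replicate 1, were most like a library of 25 mM replicate 2. By the labels' batch field, the first technical replicates are batch 1 and the second batch 2, so that each batch holds 3 libraries of each condition.

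The spread between technical replicates was wide for the disc genes. In 25 mM replicate 2 the larger technical replicate exceeded the smaller by between 1.59 and 7.84 times over the 9 genes, with a median of 2.19, and in 25 mM replicate 1 by a median of 2.22. In 25 mM replicate 3 the same ratio did not go above 1.26. The widest pair was that of Rp1 in 25 mM replicate 2, with 6720 CPM (counts relative to the library total after TMM normalization) in the first library and 857.1 in the second. Over single libraries, the lowest at 25 mM was above the highest at 5 mM for Abca4, Prom1, Cdhr1, Rp1 and Rp1l1. The gaps were narrow for Abca4 (140.3 against 133.4 CPM), Cdhr1 (205.7 against 196.4) and Rp1 (857.1 against 754.4). The ranges overlapped for Prph2, Rom1, Fscn2 and Prcd. The share of all genes with such a gap was not computed, and technical replicates are not separate samples. The second library of 5 mM replicate 1 and the first of 25 mM replicate 2 stood apart from their partners. Both were chosen after seeing the data. The library kept from 25 mM replicate 2 was the lowest at 25 mM for each of the 9 genes. When the 2 libraries were left out, 0 of the 9 and 2 of all genes were called. The FDR values of the 9 genes were at least 0.0571, and the log2 fold changes of the 6 genes stayed between 1.16 and 3.47.

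**Figure D1:**
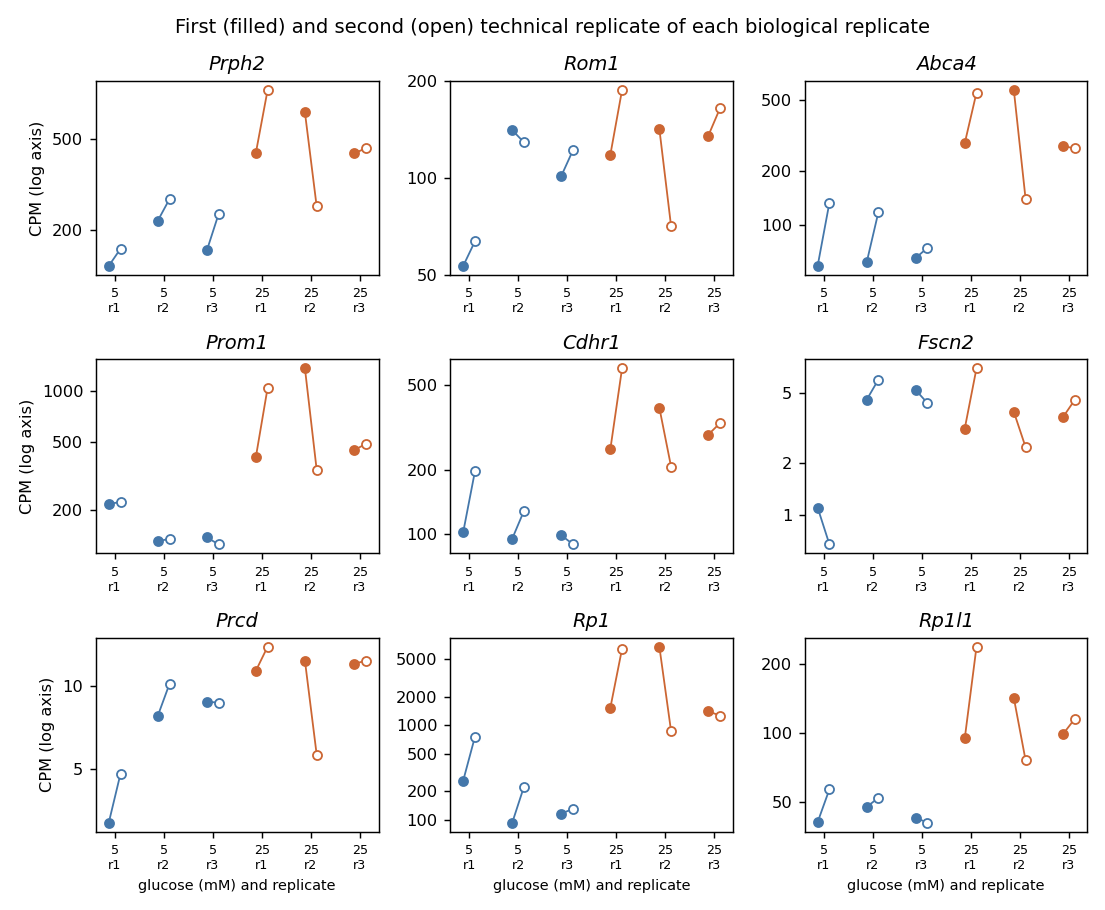
CPM (log axis) of each disc structure gene in the 12 libraries, with the 2 technical replicates of a biological replicate joined by a line, the first filled and the second open, blue for 5 mM and orange for 25 mM glucose. The lines of 25 mM replicates 1 and 2 are long for most genes, and for Rp1 that of replicate 2 runs between 857.1 and 6720 CPM.

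The DNA around the start sites of these genes is given first, as a description. The sequences are those of RefSeq for GRCm38.p6, which held a promoter for 7 of the 9 genes, without Rp1 and Rp1l1. Each runs from 250 bases before to 50 bases after an annotated start, 5′ to 3′ on the gene's strand. Capitals mark TAATCC, the core of sites for the photoreceptor factors CRX and OTX2, and GGGCGG, the GC box, read on either strand (GGATTA and CCGCCC on the other). Abca4 and Prcd are shown as the promoters that hold TAATCC, Prph2 and Rom1 as partners in one complex, and Prom1 with its distal and its proximal start.
Abca4 (chr3:122044210-122044509, plus strand): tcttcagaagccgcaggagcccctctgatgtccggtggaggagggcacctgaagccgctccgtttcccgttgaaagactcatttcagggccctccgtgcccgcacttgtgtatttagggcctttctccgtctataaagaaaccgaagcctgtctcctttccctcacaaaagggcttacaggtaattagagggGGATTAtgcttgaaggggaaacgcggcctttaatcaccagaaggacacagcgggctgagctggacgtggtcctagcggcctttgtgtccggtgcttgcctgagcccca
Prcd (chr11:116656858-116657157, plus strand): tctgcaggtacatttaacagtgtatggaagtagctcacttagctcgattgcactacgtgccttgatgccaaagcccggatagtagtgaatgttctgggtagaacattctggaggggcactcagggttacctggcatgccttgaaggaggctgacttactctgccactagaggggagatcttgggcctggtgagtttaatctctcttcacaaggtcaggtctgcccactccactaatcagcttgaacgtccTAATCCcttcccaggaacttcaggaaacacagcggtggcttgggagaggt
Prph2 (chr17:46910228-46910527, plus strand): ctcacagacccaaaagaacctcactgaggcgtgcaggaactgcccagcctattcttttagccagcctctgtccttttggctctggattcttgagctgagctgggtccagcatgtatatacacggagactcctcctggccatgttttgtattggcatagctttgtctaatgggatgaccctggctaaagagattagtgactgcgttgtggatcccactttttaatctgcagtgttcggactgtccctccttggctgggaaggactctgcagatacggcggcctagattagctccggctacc
Rom1 (chr19:8929307-8929606, minus strand): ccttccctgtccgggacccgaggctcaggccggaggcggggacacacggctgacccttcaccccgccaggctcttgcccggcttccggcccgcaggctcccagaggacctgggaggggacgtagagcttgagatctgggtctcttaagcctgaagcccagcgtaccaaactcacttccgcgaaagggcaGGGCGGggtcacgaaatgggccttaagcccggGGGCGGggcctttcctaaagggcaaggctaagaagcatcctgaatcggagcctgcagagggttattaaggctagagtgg
Prom1 distal (chr5:44101687-44101986, minus strand): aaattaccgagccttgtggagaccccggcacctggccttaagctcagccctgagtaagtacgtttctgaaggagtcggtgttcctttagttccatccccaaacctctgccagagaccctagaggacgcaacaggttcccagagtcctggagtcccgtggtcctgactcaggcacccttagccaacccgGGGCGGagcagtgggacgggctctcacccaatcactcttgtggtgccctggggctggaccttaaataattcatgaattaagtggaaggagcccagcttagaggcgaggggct
Prom1 proximal (chr5:44094719-44095018, minus strand): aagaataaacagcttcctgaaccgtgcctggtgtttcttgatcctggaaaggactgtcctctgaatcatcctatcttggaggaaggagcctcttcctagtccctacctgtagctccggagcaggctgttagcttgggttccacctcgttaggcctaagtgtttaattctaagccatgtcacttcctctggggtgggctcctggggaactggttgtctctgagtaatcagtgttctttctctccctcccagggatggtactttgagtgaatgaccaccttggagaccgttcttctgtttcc
TAATCC lay in 2 of the 8 promoters of members, and 7.06% of the 32851 promoters in the table hold it. In Abca4 it was on the opposite strand, 58 to 53 bases before the start. In Prcd it covered the first 6 bases from the start at 116657108, where the transcript Prcd-202 begins. Prcd-201, which begins at 116653855, held on average 55.4% of Prcd counts at 5 mM and 70.2% at 25 mM. Of the genes with that motif, Abca4 passed the test and Prcd did not, and Prph2, Prom1 and Cdhr1 passed it without the motif. The Prcd test also covers RNA from another start. A link between motifs and fold changes was not tested. The GC box lay in 3 of the 8, those of Rom1, Fscn2 and the distal start of Prom1, against 35.7% of all promoters. Rom1 carried it 61 to 56 and 29 to 24 bases before its start. The distal window of Prom1 surrounds a start at 44101736. The transcript Prom1-206, described below, begins at 44102032, upstream of that window. TGCTGA, the core of NRL and MAF sites, and CACGTG, the E-box, were in 0 of the 8, against 19.5% and 7.15% of all promoters.

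Prph2 and Rom1 encode tetraspanins that join into one complex and bend the disc membrane at its rim. Prph2 (ENSMUSG00000023978, chromosome 17, 46910459 to 46924933, plus strand) had 153.3, 245.5 and 202.3 CPM in the 3 replicates at 5 mM glucose and 611.6, 394.9 and 449.5 CPM at 25 mM. The replicates did not overlap, and the difference was 1.28 ± 0.244 on the log2 scale (standard error, n = 3 per condition, edgeR FDR = 0.0456). The first replicate at 25 mM was the highest. The call was close to the threshold, with an FDR of 0.0562 when transcript counts were summed per gene and 0.0523 without 25 mM replicate 3. Rom1 (ENSMUSG00000071648, chromosome 19, 8927391 to 8929356, minus strand) had 58.4, 136.4 and 112.8 CPM at 5 mM and 148.5, 94.9 and 152.3 CPM at 25 mM. Here the ranges overlapped, with the second replicate at 25 mM below 2 of those at 5 mM, and the log2 fold change of 0.36 ± 0.321 did not pass the test (edgeR FDR = 0.467).

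Because the complex needs both partners, their ratio within a replicate was also computed, after their values had been seen. Prph2 counts exceeded Rom1 counts by 2.62, 1.80 and 1.79 times at 5 mM and by 4.12, 4.16 and 2.95 times at 25 mM glucose. Every replicate at 25 mM had the higher ratio, with a difference of 0.859 on the log2 scale and an exact two-sided permutation p of 0.1, the smallest that 3 against 3 replicates allow. Per length, in TPM, counts divided by transcript length and scaled to a fixed sum, the ratio was 1.26 ± 0.286 at 5 mM and 2.25 ± 0.41 at 25 mM (SD, n = 3). Per length, the 2 genes were thus closer to each other at low than at high glucose.

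ABCA4, the third rim protein, is a transporter that flips retinal bound to phosphatidylethanolamine across the disc membrane and so clears it. Abca4 (ENSMUSG00000028125, chromosome 3, 122044443 to 122180123, plus strand) had 91.8, 87.3 and 71.0 CPM at 5 mM and 404.3, 291.9 and 273.4 CPM at 25 mM glucose. The replicates at 5 mM lay close together and far below those at 25 mM. The difference of 1.96 ± 0.211 (log2, standard error, n = 3 per condition) had an FDR of 0.0217 in edgeR. This was the lowest that any gene reached, and among the genes listed in this report Pde6b, Fam161a and Rpgrip1 shared it. Genes outside the lists that shared it are not named here. The log2 fold change of Abca4 was 2.56 in batch 1 and 1.52 in batch 2.

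Prom1 encodes prominin-1, a pentaspan protein of membrane protrusions, and its loss leaves discs overgrown and disordered. Prom1 (ENSMUSG00000029086, chromosome 5, 43993620 to 44102032, minus strand) had 222.6, 133.8 and 132.5 CPM at 5 mM and 701.3, 701.6 and 471.6 CPM at 25 mM glucose. All replicates at 25 mM were above all those at 5 mM, by 1.94 ± 0.275 on the log2 scale (edgeR FDR = 0.0269, n = 3 per condition). Its exons overlap Gm16401 on the opposite strand. Whether counting used the strand is not given in the sources used here, so reads of the overlap may be shared.

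Cdhr1 encodes a photoreceptor cadherin that links nascent discs to the inner segment. Cdhr1 (ENSMUSG00000021803, chromosome 14, 37077857 to 37098347, minus strand) had 143.5, 109.8 and 94.1 CPM at 5 mM and 410.1, 268.0 and 315.0 CPM at 25 mM glucose. The groups did not overlap, and the difference was 1.52 ± 0.233 on the log2 scale (edgeR FDR = 0.0324, n = 3 per condition). Among all pairs of the 9 genes, Cdhr1 and Rp1l1 had the most similar levels over the 12 libraries, with a Pearson r of 0.977 between their log2 CPM, a description of libraries that share condition and replicate.

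Fscn2 and Prcd, the other genes of disc formation, had low counts. Fscn2 encodes retinal fascin, which bundles actin, and was measured at 0.957, 5.25 and 4.81 CPM at 5 mM and 4.89, 2.93 and 4.16 CPM at 25 mM glucose (ENSMUSG00000025380, chromosome 11, 120361534 to 120368168, plus strand). The first replicate at 5 mM was far below the other 5, which lay together, and the log2 fold change was 0.13 ± 0.559 (edgeR FDR = 0.899). Without that replicate it was -0.33, and without the first replicate at 25 mM it was -0.04, so that its direction rested on single replicates. Prcd encodes a small disc membrane protein and had 3.92, 8.87 and 8.77 CPM at 5 mM and 12.3, 7.94 and 12.3 CPM at 25 mM glucose (ENSMUSG00000075410, chromosome 11, 116653534 to 116668389, plus strand). The ranges overlapped through the second replicate at 25 mM, and 0.59 ± 0.362 on the log2 scale did not pass the test (edgeR FDR = 0.304). Prcd overlaps exons of Cygb on the opposite strand.

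RP1 and RP1L1 are related microtubule-binding proteins with doublecortin domains, and they stiffen the axoneme along which discs are stacked. Rp1 (ENSMUSG00000025900, chromosome 1, 3999557 to 4409241, minus strand) had 474.4, 151.6 and 124.9 CPM at 5 mM and 3824, 2970 and 1331 CPM at 25 mM glucose. It was the most changed of the 9 genes and also the most variable, with 250.3 ± 194.5 against 2708 ± 1267 CPM (mean and SD, n = 3). The log2 fold change was 3.44 ± 0.611 (edgeR FDR = 0.0410), above that of 99.97% of all genes tested. Rp1 is among the genes that the study named from these same samples, so its direction here is not independent evidence.

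Rp1l1 (ENSMUSG00000046049, chromosome 14, 63992506 to 64035025, plus strand) had 48.3, 49.9 and 41.9 CPM at 5 mM and 160.9, 98.4 and 108.1 CPM at 25 mM glucose. The 3 replicates at 5 mM were nearly equal and all below those at 25 mM, and the log2 fold change was 1.39 ± 0.218 (edgeR FDR = 0.0326, n = 3 per condition). The ratio of Rp1 to Rp1l1 counts, also chosen after the values were seen, was 9.82, 3.04 and 2.98 at 5 mM and 23.8, 30.2 and 12.3 at 25 mM. Every replicate at 25 mM had the higher ratio, and the difference was 2.21 on the log2 scale (exact two-sided permutation p = 0.1).

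**Figure D2:**
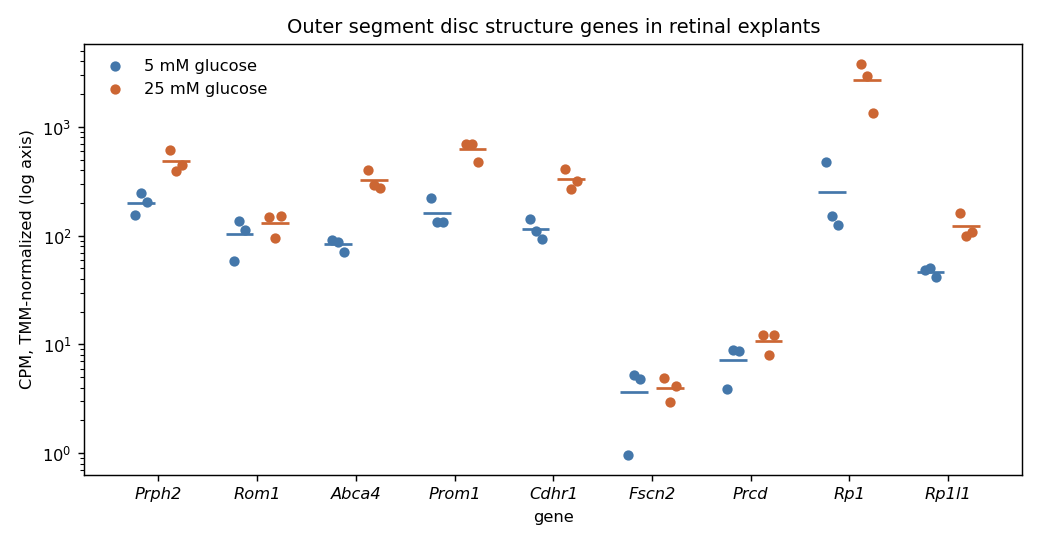
CPM (log axis) of the 9 disc structure genes in the 3 biological replicates per condition, with technical replicates summed, blue for 5 mM and orange for 25 mM glucose, and a bar at each mean. The groups are apart for Prph2, Abca4, Prom1, Cdhr1, Rp1 and Rp1l1 and overlap for Rom1, Fscn2 and Prcd.

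Levels of different genes can be compared only per length. In TPM at 5 mM glucose, Prph2 was the highest (151.4 ± 41.1), followed by Rom1 (128.2 ± 54.2), Prom1 (113.3 ± 30.4) and Rp1 (71.3 ± 52.9), neighbours that did not differ beyond their spread (SD, n = 3). Below them by mean came Cdhr1 (50.04 ± 9.51) and Abca4 (44.5 ± 5.82), whose replicates overlapped, and then Rp1l1 (20.2 ± 2.22), Prcd (18.3 ± 7.75) and Fscn2 (6.35 ± 4.18). At 25 mM Rp1 stood first (859.1 ± 441.2), in a range that reached down to that of Prom1, and Rom1 had moved from rank 2 to rank 5 (179.6 ± 54.4). Prom1 (469.4 ± 106.4) and Prph2 (397.3 ± 122.6) came next and overlapped, as did Abca4 (186.4 ± 53.5), Rom1 and Cdhr1 (157.9 ± 47.5). Rp1l1 (58.8 ± 21.0), Prcd (29.8 ± 8.66) and Fscn2 (7.51 ± 2.35) kept the last 3 ranks. By their means, the order of the top 6 genes was therefore different at the 2 concentrations, and Rp1 went from rank 4 to rank 1. Its rank at 5 mM rested on replicate 1, with 132.1 TPM. In replicates 2 and 3 Rp1 (45.61 and 36.12) was below Cdhr1 (49.55 and 40.78) and Abca4 (49.1 and 37.97).

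The transcript estimates gave a further view of Prom1. Of its 10 annotated coding transcripts that span the gene, Prom1-206 (start site 44102032) had 23.1, 21.5 and 11.3 CPM at 5 mM and 291.7, 130.7 and 144.2 CPM at 25 mM glucose, values that did not overlap. Prom1-203 (start site 44101681) had 84.1, 64.7 and 71.4 CPM and then 101.3, 102.3 and 87.9 CPM, a far smaller difference. Prom1-208, which begins at the proximal start (44094768), had 54.6 CPM in the first replicate and at most 16.3 CPM in the others at 5 mM, and 163.6, 214.9 and 131.1 CPM at 25 mM. Prom1-207, from the same start, was in the opposite order, with 7.04, 14.6 and 18.5 CPM at 5 mM and no more than 6.04e-05 CPM in any replicate at 25 mM. The share of proximal starts among these transcripts was 33.8%, 22.3% and 27.7% at 5 mM and 26.0%, 42.4% and 32.7% at 25 mM, ranges that overlapped.

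Prom1-206 and Prom1-203 differ in 4 internal exons as well as in their first exon, and the exons are shown because the shares of transcripts that hold them were far apart. An exon of 27 bases (chr5:44058626-44058652) and an exon of 18 bases (chr5:44012499-44012516) are in Prom1-206 and Prom1-208, and exons of 24 bases (chr5:44001270-44001293) and 69 bases (chr5:44000777-44000845) are in Prom1-203. All lengths are multiples of 3. The sequences below were read from GENCODE M21 transcripts on GRCm38, minus strand, 5′ to 3′, with the exon in capitals and 20 bases of each neighbouring exon in lower case.
Prom1, exon of 27 bases: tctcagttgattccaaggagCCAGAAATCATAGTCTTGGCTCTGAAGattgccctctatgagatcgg
Prom1, exon of 18 bases: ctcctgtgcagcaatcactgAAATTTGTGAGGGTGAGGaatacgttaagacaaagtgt
Prom1, exon of 24 bases: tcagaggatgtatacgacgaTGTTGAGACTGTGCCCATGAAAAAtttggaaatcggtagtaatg
Transcripts with the exon of 27 bases held 44.1%, 34.5% and 25.7% of the counts of these coding transcripts at 5 mM and 73.5%, 71.3% and 70.2% at 25 mM glucose. For the exon of 18 bases the shares were 42.6%, 27.1% and 21.99%, and then 72.2%, 68.2% and 68.6%. The replicates at 25 mM were within a few points of each other and well above all those at 5 mM. Transcripts with the exons of 24 and 69 bases, which occur together, held 47.6%, 56.7% and 60.6% and then 17.4%, 23.3% and 23.5%. The groups were separate for all 4 exons (exact two-sided permutation p = 0.1 each, the smallest possible), but these are not 4 separate readings, since the exons of 24 and 69 bases are in the same transcripts and those of 27 and 18 bases in nearly the same ones. Over 4449 genes with such alternative exons, groups were separate in either direction for 13.4% of 6988 readings. The share of the exon of 27 bases was 47.6 percentage points higher at 25 mM within batch 1 and 23.8 points higher within batch 2. These shares were chosen for description after they were seen, and they rest on estimates that divide reads among overlapping transcripts.

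Other members also differed in which transcripts were counted. Prph2-202, a transcript that keeps an intron, held 5.64%, 2.02% and 0.972% of Prph2 counts at 5 mM and 15.1%, 10.8% and 7.68% at 25 mM glucose. Retained-intron transcripts of Abca4 held 9.05%, 6.65% and 5.87% and then 9.23%, 12.7% and 9.18%. Those of Prom1 held 5.79%, 1.88% and 1.43% and then 6.08%, 9.37% and 3.91%, ranges that overlapped, and their difference of 3.42 percentage points was 0.412 without the 2 libraries that stand apart. The difference of Prph2 was 11.8 points in batch 1 and 3.75 in batch 2. Prph2 and Abca4 were thus separate between conditions, but 33.5% of the 7046 genes with enough counts of both kinds were separate in this direction, and their median share was 9.71% at 5 mM and 13.0% at 25 mM. This direction was therefore shared by many genes. Without its retained-intron transcript, Prph2 still had 146.4, 250.2 and 210.7 CPM on its coding transcript Prph2-201 at 5 mM and 476.1, 344.8 and 416.9 CPM at 25 mM.

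In Abca4, the coding transcript Abca4-207 begins far inside the gene at 122132002 and was not higher at 25 mM to the extent of the whole gene. It had 16.1, 37.3 and 34.5 CPM at 5 mM and 26.0, 29.3 and 49.2 CPM at 25 mM, ranges that overlapped, while the transcript over all 50 exons, Abca4-201, had 61.1, 44.0 and 30.6 CPM and then 319.3, 184.5 and 187.0 CPM. The share of Abca4-207 was accordingly 17.5%, 41.1% and 48.1% and then 6.30%, 10.8% and 17.5%. The highest share at 25 mM was about the lowest at 5 mM, so this separation was narrow. In Rp1, the transcript of 4 exons, Rp1-201, held 90.0%, 86.8% and 89.9% of the counts at 5 mM and 95.8%, 95.2% and 90.8% at 25 mM. Nearly all of the change in Rp1 was thus counted on Rp1-201, which had 426.3, 127.0 and 111.1 CPM at 5 mM and 3762, 2953 and 1222 CPM at 25 mM, but the 30-exon transcript Rp1-203 was also higher in every replicate at 25 mM (47.2, 19.1 and 12.4 against 163.1, 146.9 and 123.4 CPM).

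**Figure D3:**
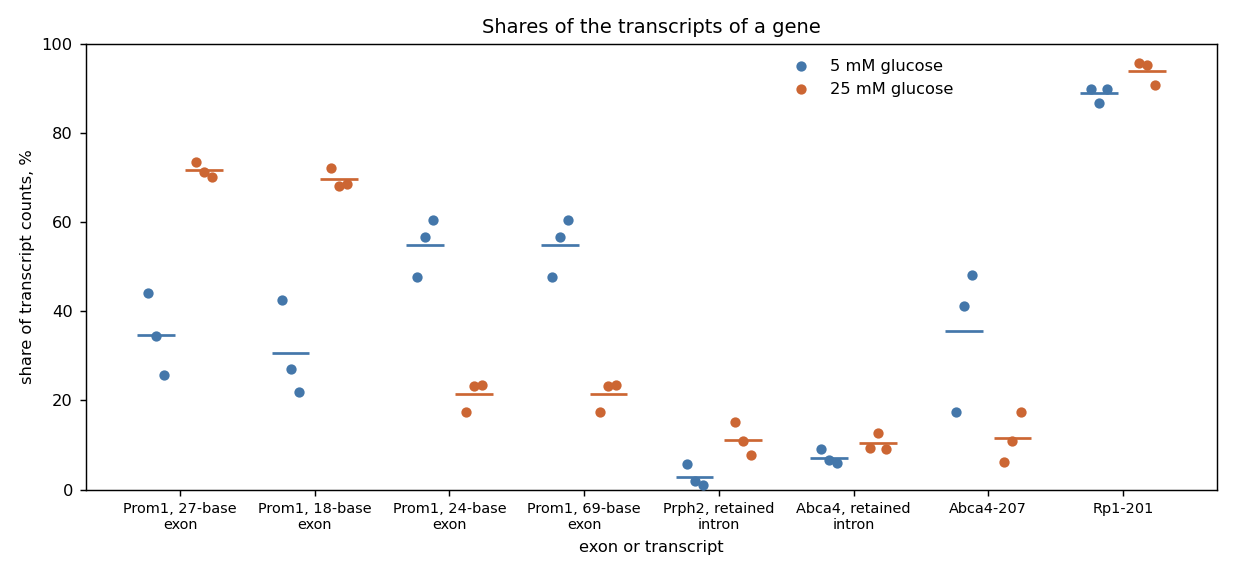
Share of transcript counts (%) in the 3 replicates at 5 mM (blue) and 25 mM glucose (orange), with a bar at each mean, for transcripts of Prom1 that hold each of 4 exons, retained-intron transcripts of Prph2 and Abca4, Abca4-207 and Rp1-201. The Prom1 exons of 27 and 18 bases are near 70.2% to 73.5% and 68.2% to 72.2% at 25 mM, above all replicates at 5 mM.

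The members differ in length and base composition, and their fold changes followed both. Rp1, Abca4 and Rp1l1 have the longest coding transcripts (6869, 7263 and 6684 bases), and Prcd, Rom1 and Fscn2, the genes that did not pass the test, have the shortest (1227, 1517 and 1713 bases) and the highest GC content (60.6%, 57.1% and 59.1%, against 39.6% for Rp1). Over the 9 genes, Spearman's rho of the log2 fold change was 0.85 with length and -0.883 with GC content, given as a description. Over 16068 coding genes rho was 0.131 and -0.41. The median log2 fold change of coding genes went from 0.34 in the decile of lowest GC content to -0.56 in the highest.

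When GC content and the length of transcripts were corrected for, 8 of the 9 genes were higher at an FDR under 0.05, against 6.11% of all genes. Rom1 (0.81 ± 0.143, edgeR FDR = 0.0201) and Prcd (1.09 ± 0.182, FDR = 0.0169) then passed the test, while Fscn2 (0.75 ± 0.377, FDR = 0.198) did not. The 6 other genes had log2 fold changes between 1.61 and 3.22. Rp1 remained the most changed, and Rom1 had a lower value than Prph2 (1.61) with and without the correction.

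**Figure D4:**
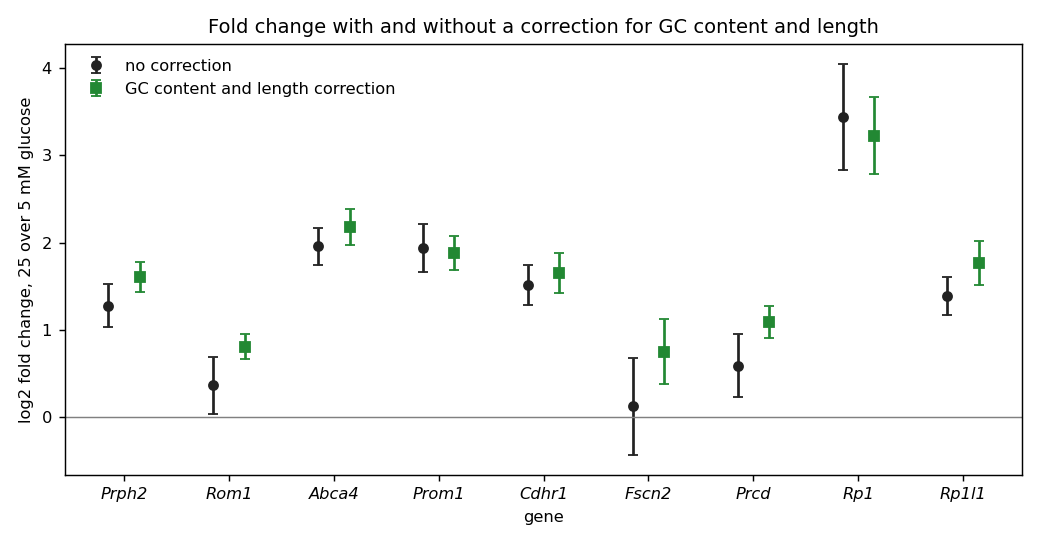
Log2 fold change of 25 over 5 mM glucose for each gene with its standard error (n = 3 replicates per condition), without (black circles) and with (green squares) correction for GC content and length. With the correction Rom1, Prcd and Fscn2 moved up to 0.81, 1.09 and 0.75.

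**Figure D5:**
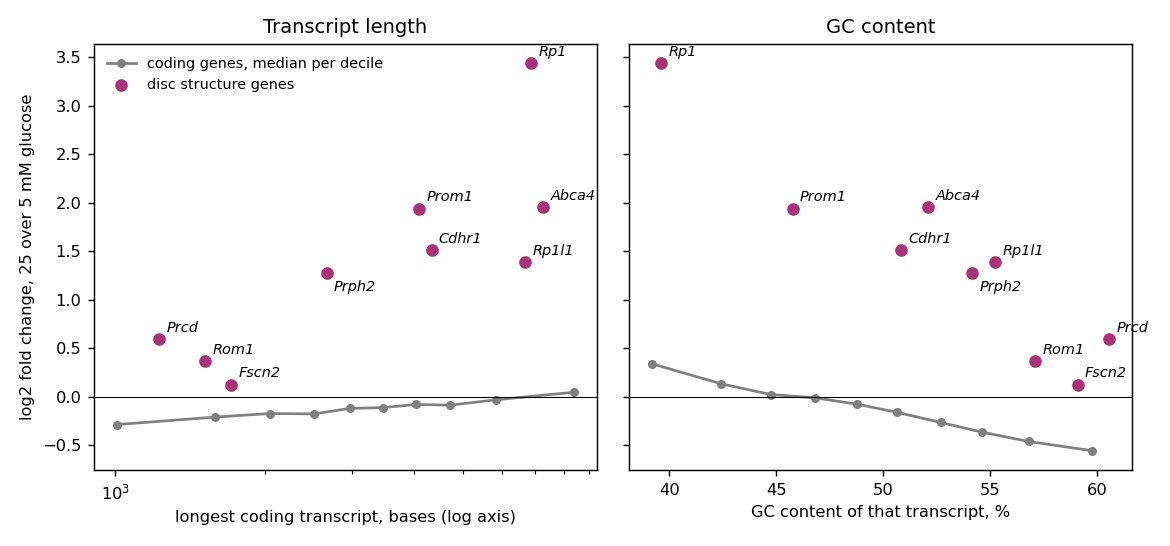
Log2 fold change of the 9 genes (purple) against the length of the longest coding transcript (left, log axis) and its GC content (right), with the median of coding genes in each decile in grey. The members lie above the grey line in both panels, and Fscn2, Rom1 and Prcd stand at the short and GC-rich ends.

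Other genes of the rod outer segment were read in the same fit, from lists chosen with earlier results known. Of all genes tested, 1.47% were called higher and 0.513% lower at an FDR under 0.05. Of 10 genes for light detection and the cation channel in the disc or plasma membrane, 10 were above 0. Their median log2 fold change was 1.35. At the same threshold, 6 were called higher and 0 lower. They included Pde6b, a catalytic subunit of the phosphodiesterase (1.65, FDR = 0.0217), Slc24a1, the cation exchanger (1.90, FDR = 0.0228), Cnga1, the channel subunit (2.12, FDR = 0.0261), and Gucy2e, a guanylate cyclase (1.97, FDR = 0.0261). Gucy2f had the highest value (3.13, FDR = 0.0425) and Gnat1 the lowest (0.45, FDR = 0.308). Like Rp1, Gucy2f was named by the study from these same samples, so its direction is not independent evidence. The abundant disc protein rhodopsin had 0.58 and did not pass the test (FDR = 0.303). It falls outside the rule by which genes were named and was chosen after its values were seen.

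Of 12 partners in the cilium and in disc formation, 12 were above 0, with a median of 0.77. Against 1.47% and 0.513% of all genes, 4 were called higher and 0 lower at an FDR under 0.05. They were Fam161a (1.54, FDR = 0.0217), Rpgrip1, a protein of the connecting cilium (2.37, FDR = 0.0217), Mak, a ciliary kinase (2.86, FDR = 0.0261), and Pcare, which drives actin at the site of disc formation (1.88, FDR = 0.0330). Kif3a, a motor of ciliary transport, was lowest at 0.09 and did not pass the test (FDR = 0.696). Of 6 genes for lipid flipping and the clearance of retinal, 5 were above 0. At that FDR, 4 were called higher and 0 lower. These were Rdh8 (2.10, FDR = 0.0271), Rdh12 (0.97, FDR = 0.0359) and Rbp3 (1.11, FDR = 0.0456), which handle retinoids, and the flippase Atp8a2 (1.31, FDR = 0.0439), while Tmem30a, a flippase subunit, had -0.02 (FDR = 0.962).

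Relatives of the members from the same gene families, most of them used outside photoreceptors, were also listed. Of 17, 13 could be tested, and 0 rose and 0 fell at an FDR under 0.05, where 1.47% and 0.513% of all genes did. Their median log2 fold change was -0.24. Dcx, a doublecortin, was highest at 0.47 (FDR = 0.521). Fscn1, the fascin of other cells, was lowest at -2.25 (FDR = 0.0741), next to 0.13 for Fscn2.

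Rod markers were read in the same way, at an FDR under 0.05 that 1.47% of all genes passed as higher and 0.513% as lower. Of 9 rod markers that are not members, 3 were called higher and 0 lower, namely Nrl, the rod fate factor (1.33, FDR = 0.0261), Nr2e3 (0.99, FDR = 0.0305) and Samd7 (1.34, FDR = 0.0330). Gngt1 was highest at 1.51 (FDR = 0.0504) and Pde6g lowest at 0.24 (FDR = 0.693), and 6 of the 9 did not pass the test. The median of the list was 0.99, and its summed level went from between 839.7 and 1116 CPM to between 1884 and 2275 CPM.

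Set against the mean log2 CPM of the rod markers in the same replicate, the members split. Rp1 was 2.60 higher at 25 mM than at 5 mM on the log2 scale, Abca4 0.972 and Prph2 0.308, each with replicates apart (exact two-sided permutation p = 0.1). On this measure 0.86% of all other genes were apart and higher, and 64.1% apart and lower, while the mean of the rod markers was 0.97 higher at 25 mM on the log2 scale. Prom1 (0.989), Cdhr1 (0.545) and Rp1l1 (0.39) were higher on average, but their replicates overlapped. Rom1 (-0.551), Fscn2 (-0.55) and Prcd (-0.318) were lower on average, with replicates that also overlapped. The median over the 9 genes was 0.39, and it was 0.12 when the list of light detection genes was joined to the rod markers.

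Markers of other cells were read beside these values. Of 8 cone markers Opn1mw, the medium-wave opsin gene, was called higher (1.75, FDR = 0.0420) and 0 were called lower, with a list median of 0.37. The short-wave opsin gene Opn1sw was lowest at -1.01 (FDR = 0.0704), with replicates apart, and 5 of the 8 were above 0. Their summed level was between 64.8 and 90.0 CPM at 5 mM and between 87.8 and 106.0 CPM at 25 mM. Of 7 bipolar, 6 amacrine, 8 ganglion cell and 7 Müller glia markers, 0 were called in either direction. Bipolar markers ran from Pcp2 at -0.97 to Cabp5 at 0.99, and amacrine markers from Gad2 at -0.96 to Tfap2a at 0.26. Ganglion cell markers ran from Rbpms at -1.68 to Slc17a6 at 1.26, and Müller glia markers from Apoe at -1.32 to Aqp4 at 0.76. The 7 vascular markers had a median log2 fold change of -2.08 and 0 calls, and their summed level went from between 914.0 and 1593 CPM to between 505.3 and 843.2 CPM. Pdgfrb was lowest at -2.46 (FDR = 0.0594) and Rgs5 highest at 0.09. The 6 microglia markers had a median of -0.98, also with 0 calls, from Tmem119 at -1.54 to P2ry12 at -0.25. Of the pigment epithelium markers, 4 of 6 passed the filter, from Ttr at -0.83 to Rgr at 1.41, and 0 were called. Rpe65, the defining one, did not pass the filter and had 0.0267 CPM on average at 5 mM, and is named outside the rule after its values were seen. The part of vascular and microglial RNA in the results for the disc genes was not tested.

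Some genes outside the lists had nearly the same pattern as the members. Across the 12 libraries, the mean of the members' standardized log2 CPM was most correlated with Vtn (r = 0.988), which encodes vitronectin and is abundant in photoreceptors, and with the transcription factor genes Casz1 (r = 0.977) and Nrl (r = 0.977). Ccdc157, Pde8b and Zfyve28 each had an r of 0.976. Casz1 is also among the genes that the study named from these same samples. Libraries share condition, replicate and base composition, so these are descriptions. Among the members, Prph2 followed the mean of the other 8 most closely (r = 0.986) and Fscn2 least (r = 0.441), with Rom1 at 0.705. Rp1 and Fscn2 had the least similar pair of patterns (r = 0.047).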

How the data were processed

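The study made its RNA-seq libraries with a stranded kit suited to small amounts of total RNA and read them in pairs. For 53707 genes and 146263 transcripts the authors deposited estimated counts, which need not be whole, unnormalized and with a column for each technical replicate, on GRCm38 per the submitters' processing notes. The aligner, the counter and the annotation are not given in the sources used here. Technical replicates were summed and the estimated counts rounded to whole numbers. Symbols, positions, lengths and GC content came from GENCODE M21.

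Counts were normalized by TMM, filtered with filterByExpr and tested with the quasi-likelihood method of edgeR 4.0.16 as in its version 3 (R 4.3.3), with no replicate block. P-values of 21061 genes were adjusted by Benjamini-Hochberg. DESeq2 1.42.0 and limma-voom (limma 3.58.1) were alternatives. Log2 CPM used a prior count of 2. TPM was computed from transcript counts and lengths. The procedure was tested on simulated data. Single values were compared by exact permutation. Alternative exons were internal exons held by some of a gene's coding transcripts that cover at least 80% of the gene, with at least 60 counts with and without the exon. Python 3.11.15, pandas 2.3.3, scipy 1.17.1 and matplotlib 3.10.9 were used.

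The members, lists and tests were chosen with earlier results of these data known. Named were all 9 members, of each other list up to 4 genes with an FDR under 0.05 and the genes with the highest and lowest fold change, and the 6 genes most like the members; names outside this rule are marked. Intervals and standard errors cover these replicates, and reads without molecular identifiers are not independent molecules.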

Additional observations from a re-analysis of the deposited data

Results flagged for a closer look

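Over the 6 libraries of a condition, 18 groups of values were examined, and in 3 of them a single library lay far from the rest by Dixon's test, where chance gives about 0.9. In the second technical replicate of 5 mM replicate 1, Rp1 had 754.4 CPM and Cdhr1 had 196.4 CPM, the highest values of that condition. The first technical replicate of that biological replicate had 260.0 and 101.6 CPM. In the second technical replicate of 25 mM replicate 2, Prcd had 5.623 CPM, the lowest of that condition, and the first had 12.3 CPM. The causes were not tested.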

How the results depend on the processing

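The median log2 fold change of the 9 genes stayed within the spread between replicates under all 22 alternatives. The count of 6 genes called at the FDR of 0.05 stayed at 6 in DESeq2, was 8 with a correction for GC content and length, and fell to 0 in batch 2 alone and with the 2 libraries that stand apart left out, an alternative added after seeing the data. Leaving out single replicates gave counts between 0 and 6, with 0 without 5 mM replicate 2 or 3 or 25 mM replicate 1 or 2, where 0 of all genes were called as well, while 5845 of all genes were called without 5 mM replicate 1. Under the stricter thresholds of FDR and fold, the count of 0 became 6 with DESeq2, 6 without a filter on low counts, 4 with the 12 libraries as separate samples, 2 in batch 1 alone, 3 with the GC content and length correction and 6 when a replicate block was added to it, and between 0 and 3 without single replicates. Over all genes 417 were called at the FDR of 0.05, and 3489 in DESeq2, 1979 without a filter, 666 with a filter of 1 CPM, 2918 with 12 libraries, 3279 in batch 1 alone, 0 in batch 2 alone, 2 without the libraries that stand apart, 2650 with the GC content and length correction and 3018 when the block was added to it. Under the stricter thresholds these were 0 of all genes, and 1387 in DESeq2, 275 without a filter, 109 with 12 libraries, 367 in batch 1 alone, 121 and 484 with the corrections and 108 without 5 mM replicate 1. The fit of 12 libraries counts technical replicates as samples, so its error is not that between biological replicates.

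The replicate block gave 5 of the 9 genes, since Prph2 then had an FDR of 0.0546, and 990 of all genes. Same-numbered replicates had correlations of deviations between -0.449 and 0.285, and not every replicate was most like its own number. With 3 replicates per condition this cannot settle whether the numbers pair the samples, and the labels do not say. Prph2 had an FDR of 0.0562 with transcript counts summed per gene. The fold change of Fscn2 turned to -0.05 in batch 1 alone, -0.33 without 5 mM replicate 1 and -0.04 without 25 mM replicate 1, with values between -0.33 and 0.46 when single replicates were left out, and the share of Prcd-201 was 14.8 points higher at 25 mM but -0.607 in batch 1 alone. The median of members relative to rod markers was 0.39 and 0.12 with the light detection genes added. The causes were not tested. The lowest count of a member in a replicate was 52.5, for Fscn2, and the part of counting error in the spread between replicates was not tested.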
